A study of Mus musculus with 11 samples.

Results

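The Hox genes of paralogue groups 4 and 5 are 7 mouse genes: Hoxa4, Hoxb4, Hoxc4, Hoxd4, Hoxa5, Hoxb5 and Hoxc5. They were taken by name, and every probe set that carried 1 of these symbols and no other was used. That gave 11 probe sets for 6 of the 7 genes, out of 18193 genes with such a probe set on the array. Hoxd4 has no probe set of its own here: its 2 probe sets are annotated to Hoxd4 and Hoxd3 together. Where a gene had several probe sets, the one with the highest mean over all arrays led and the others served as a check. All 6 genes passed the filter on dim genes (mean log2 signal of at least 4.30), which left 13338 genes to test.

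Expression was measured on 11 Affymetrix Mouse Genome 430 2.0 arrays of neural tissue from C57BL/6 embryos, in 4 groups: closed neural tube at E9.5 (n = 3), open neuroepithelium at E9.5 (n = 3), closed tube of E8.5 embryos (n = 2) and open neuroepithelium at E8.5 (n = 3). Open tissue was the neural plate caudal to the point where closure had reached, and closed tissue was the tube ahead of that point, beginning a somite's width rostral to it and ending within the level of the last few somites, so that closure and axial level cannot be told apart. All groups share the strain, the separation in pancreatin and trypsin (8 min at E9.5, 5 min at E8.5), a notochord that stayed attached, pooling of embryos by litter (111 embryos in the series) and 50 ng of RNA amplified over 2 cycles. Enzyme time thus went with stage, and the regions were set by the closure point of each stage. Differences between the stages therefore cannot be told apart from differences in enzyme time or in the axial level sampled. A closed E8.5 array that the authors judged to be of deviating quality is not analysed here.

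Hox genes encode homeodomain transcription factors that lie in 4 clusters and give cells their position along the head-to-tail axis. Genes at the 3-prime end of a cluster are switched on first and furthest forward, those at the 5-prime end later and further back. Paralogue groups 4 and 5 sit between both ends, and in the mouse their neural expression reaches forward to the hindbrain and the cervical cord. Several of them answer directly to retinoic acid, which the trunk mesoderm makes, while Cdx factors and FGF and Wnt signals act on Hox genes at the caudal end of the embryo.

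The labels were checked with marker genes. The 5 measured caudal epiblast markers averaged 7.02 to 7.30 log2 signal in closed E9.5 arrays, against 9.48 to 10.10 in open E9.5 arrays, and 6.47 to 6.66 in closed E8.5 arrays, against 9.55 or more in open E8.5 arrays. The 6 neural progenitor markers averaged 9.01 to 9.22 in closed E9.5 arrays, against 8.14 to 8.44 in open E9.5 arrays, and 9.23 to 9.57 in closed E8.5 arrays, against 7.67 to 8.10 in open E8.5 arrays. The means of both lists thus separated the regions without overlap at each stage. All 5 caudal epiblast markers passed as lower in closed tissue at both stages (limma, adjusted p under 0.05). Of the 6 neural progenitor markers, 4 passed as higher at each stage. At E9.5 Sox3 differed by 0.36 (log2, closed minus open) and Fabp7 went the other way (-0.67), neither past the threshold. At E8.5 Sox2 (0.10) and Sox3 (0.29) did not pass. Other cell types also differed between arrays. The 9 somite markers averaged 5.66 in closed E8.5 replicate 2 and 4.67 in closed E8.5 replicate 1, against 4.37 to 4.59 in the other 9 arrays. The 6 presomitic mesoderm markers averaged 4.93 to 5.04 in closed E9.5, against 5.94 to 6.42 in open E9.5, and 4.69 to 4.85 in closed E8.5, against 6.31 to 6.59 in open E8.5. Of the 5 tested, 3 were lower in closed tissue at each stage (Tbx6, Hes7 and Dll3, limma, adjusted p under 0.05). Msgn1 and Mesp2 differed by -0.04 and 0.04 (log2) at E9.5 and by -0.05 and -0.01 at E8.5. Ripply2 was below 4.30 on all arrays. The mean of the 6 surface ectoderm markers showed the same order (6.72 to 6.94 against 7.30 to 7.38 at E9.5, and 6.63 to 6.71 against 7.64 to 7.83 at E8.5). At E9.5 this order rested on Epcam (-2.03, log2, closed minus open) and Grhl3 (-1.72). Krt8, Krt18, Krt19 and Grhl2 differed there by 0.51, 0.01, 0.24 and -0.02. At E8.5, 4 of the 6 were lower in closed tissue (limma, adjusted p under 0.05). The 6 endothelial markers stayed at 3.94 to 4.22 in all arrays, with 4 of them (Pecam1, Cdh5, Tek and Emcn) below 4.30 throughout. For the control transcripts Gapdh and Actb, log2 signal at the 3-prime end minus that at the 5-prime end was 2.20 in replicate 1 and 2.48 in replicate 2 of open E9.5 tissue, and 1.14 to 1.82 in the other 9 arrays.

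Promoter sequences show what lies at the start of the genes whose values follow. RefSeq (GRCm38.p6) gave a window from 250 bases before to 50 bases after a start site for 4 of the 7 genes, and those of 3 measured genes are printed: Hoxc4 (chr15:103034145-103034444, plus strand), which differed between regions at E8.5, Hoxa5 (chr6:52204538-52204837, minus strand), which differed at E9.5, and Hoxb4 (chr11:96318017-96318316, plus strand), which passed the test at neither stage. Capitals mark the half-site of retinoic acid receptors, AGGTCA on either strand (TGACCT on the other), and the runs of bases described after the sequences.
Hoxc4: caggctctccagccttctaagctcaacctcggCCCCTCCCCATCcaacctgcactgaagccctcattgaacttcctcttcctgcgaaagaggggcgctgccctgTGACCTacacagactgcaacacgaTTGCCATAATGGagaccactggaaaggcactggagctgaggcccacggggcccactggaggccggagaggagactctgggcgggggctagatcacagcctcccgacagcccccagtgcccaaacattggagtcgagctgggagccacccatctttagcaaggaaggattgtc
Hoxa5: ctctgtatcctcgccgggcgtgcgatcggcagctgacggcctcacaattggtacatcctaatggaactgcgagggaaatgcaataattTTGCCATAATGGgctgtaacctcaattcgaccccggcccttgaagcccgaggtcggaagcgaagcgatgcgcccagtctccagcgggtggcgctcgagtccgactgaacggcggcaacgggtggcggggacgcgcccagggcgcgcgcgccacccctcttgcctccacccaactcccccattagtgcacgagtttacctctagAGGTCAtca
Hoxb4: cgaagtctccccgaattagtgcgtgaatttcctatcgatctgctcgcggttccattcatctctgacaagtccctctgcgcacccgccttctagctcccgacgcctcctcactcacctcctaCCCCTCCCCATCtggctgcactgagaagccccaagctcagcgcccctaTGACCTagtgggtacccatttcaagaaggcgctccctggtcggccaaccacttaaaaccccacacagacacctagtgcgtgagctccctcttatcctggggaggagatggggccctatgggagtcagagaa
The half-site AGGTCA, searched on both strands, was present in all 4 available windows (Hoxb4, Hoxc4, Hoxd4 and Hoxa5) and in 16.3% of 32851 promoter windows of the same length. In Hoxa5 it begins 41 bases after the start site. The core TTTAT of Cdx sites was in 1 of the 4, that of Hoxd4, and in 40% of all windows. The longest runs shared by any pair of the 3 printed windows, on either strand, were 12 bases long, and there were 2 of them. TTGCCATAATGG lies in Hoxc4 (beginning 122 bases before the start site) and in Hoxa5 (162 bases before it), and occurred in 2 of the 32851 windows, those same 2. CCCCTCCCCATC lies in Hoxc4 (218 bases before the start site) and in Hoxb4 (129 bases before it), and occurred in 30 of the 32851 windows. Neither overlaps the other motifs. The runs were picked from these sequences, and the half-site and the Cdx core were chosen after the sequences were seen. The shares of windows with a match are therefore a description and no test, and a match says nothing of whether a factor binds there.

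Across the 6 measured genes, 4 patterns were seen in the plot of values by sample. Hoxc4 and Hoxc5 were low in the closed tube at E8.5. Hoxb5 was high there and low in the open plate at E8.5. Hoxa5 was high in the open plate at E9.5. Hoxa4 and Hoxb4 passed the threshold in none of the 5 comparisons (limma, Benjamini-Hochberg adjusted p under 0.05 over 13338 genes), with unadjusted p of 0.054 for Hoxa4 between the stages in open tissue and at least 0.144 otherwise.

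**Figure D1:**
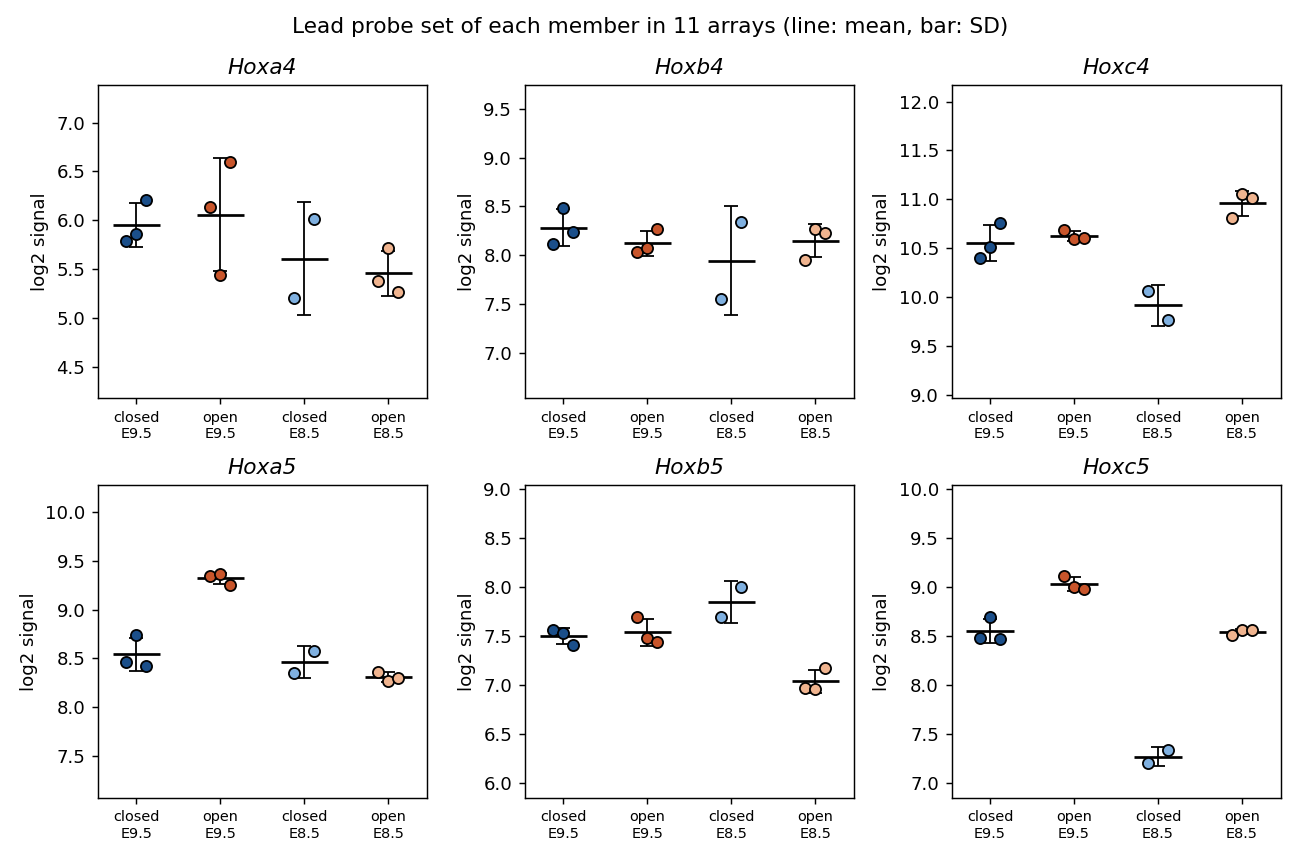
Log2 signal of the lead probe set of each gene (vertical axes, each panel centred on its gene's mean and spanning the same range) in the arrays of the 4 groups (points), with group means (lines) and SD (bars). Closed E8.5 arrays lie below all others for Hoxc4 and Hoxc5, open E9.5 arrays lie above all others for Hoxa5 and Hoxc5, and open E8.5 arrays lie below all others for Hoxb5.

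Paralogue group 4 is described first. Hoxc4, which in mouse B cells also drives expression of the antibody-diversifying enzyme AID, had log2 signals of 10.40, 10.51 and 10.76 in closed E9.5 tissue, against 10.69, 10.60 and 10.60 in open E9.5 tissue. In closed E8.5 tissue it had 10.07 and 9.77, against 10.81, 11.06 and 11.01 in open E8.5 tissue. The regions thus overlapped at E9.5 and were apart at E8.5. Closed tissue was 2.06-fold lower at E8.5 (log2 difference -1.04, SE 0.14, adjusted p = 0.000412). At E9.5 the difference was -0.08 (95% interval -0.34 to 0.19, adjusted p = 0.802). Hoxc4 has 1 probe set, so that no second measurement checks these values. The means of the caudal epiblast, presomitic mesoderm and surface ectoderm markers also lay lower in closed than in open E8.5 arrays. Their levels, and the presomitic markers that did not differ, are given above. The part of these cell types in the lower Hoxc4 and Hoxc5 values was not tested.

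From stage to stage Hoxc4 was higher at E9.5 than at E8.5 in closed tissue by 0.64 (log2, SE 0.14, adjusted p = 0.0303). In open tissue it differed by -0.33 between the stages (95% interval -0.59 to -0.06, adjusted p = 0.17), although the groups did not overlap. The order of its group means, from low to high, was closed E8.5, closed E9.5, open E9.5 and open E8.5, and of these neighbours closed and open E9.5 had overlapping values. The stage difference in closed tissue was no longer past the threshold under 10 of 24 alternatives. Those include leaving out open E8.5 replicate 3, closed E8.5 replicate 2, open E9.5 replicate 1, or closed E9.5 replicate 2 or 3 (adjusted p from 0.0527 to 0.25).

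Hoxb4, known for expanding blood stem cells in culture, had log2 signals of 8.12, 8.49 and 8.24 in closed E9.5 tissue, against 8.03, 8.07 and 8.26 in open E9.5 tissue. In closed E8.5 tissue it had 7.55 and 8.34, against 7.95, 8.27 and 8.23 in open E8.5 tissue. All 4 groups overlapped with their neighbours in order. The closed-minus-open difference was 0.16 at E9.5 (95% interval -0.26 to 0.58) and -0.20 at E8.5 (-0.67 to 0.27), so that region differences of more than 0.67 in size lay outside both intervals. The second Hoxb4 probe set had group means from 5.36 to 5.51 and differences between regions of 0.02 at E9.5 and -0.07 at E8.5.

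Hoxa4, whose loss in mice alters cervical vertebrae, had log2 signals of 5.79, 5.86 and 6.21 in closed E9.5 tissue, against 6.14, 5.45 and 6.59 in open E9.5 tissue, and of 5.20 and 6.02 in closed E8.5 tissue, against 5.38, 5.72 and 5.27 in open E8.5 tissue. The spread within a group was widest in open E9.5 and closed E8.5 tissue (SD 0.58 in each), and every pair of neighbouring groups overlapped. The closed-minus-open difference was -0.11 at E9.5 (95% interval -0.72 to 0.51) and 0.15 at E8.5 (-0.54 to 0.84). The stage difference in open tissue was 0.60 (95% interval -0.01 to 1.22, adjusted p = 0.297). It became 1.18 (adjusted p = 0.00109) with the 3-prime minus 5-prime control signal in the model and 0.70 (adjusted p = 0.00642) with array weights, within a range of 0.00109 to 0.541 over the 24 alternatives. The second Hoxa4 probe set lay at 3.08 to 3.56 on all arrays, under the filter.

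Hoxd4 could not be separated from Hoxd3. Probe set 1421537_at, annotated to both, had log2 signals of 7.08, 7.38 and 7.53 in closed E9.5 tissue, against 7.10, 7.17 and 7.34 in open E9.5 tissue, and of 7.34 and 7.85 in closed E8.5 tissue, against 6.47, 6.56 and 6.74 in open E8.5 tissue. The regions overlapped at E9.5 and did not at E8.5, where both closed arrays lay above all open arrays. Probe set 1450209_at, annotated likewise, had group means of 6.55 in closed E9.5 and 6.93 in open E9.5 tissue, and of 6.74 in closed E8.5 and 6.30 in open E8.5 tissue, with SDs from 0.26 to 0.55. Neither was tested. The neighbour Hoxd3, read by a probe set of its own, was higher in closed tissue at E8.5 by 1.63 (SE 0.22, adjusted p = 0.000659), and differed by 0.34 at E9.5 (SE 0.20, adjusted p = 0.418).

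In paralogue group 5, Hoxc5, which acts with Hoxa5 in the motor neurons of the mouse diaphragm, showed on its lead probe set the largest region difference of the 6 genes tested. It had log2 signals of 8.48, 8.69 and 8.47 in closed E9.5 tissue, against 9.11, 9.0 and 8.98 in open E9.5 tissue. In closed E8.5 tissue it had 7.20 and 7.34, against 8.52, 8.56 and 8.56 in open E8.5 tissue. Closed arrays lay below open arrays at both stages. The difference was -0.48 at E9.5 (SE 0.11, adjusted p = 0.0163) and -1.28 at E8.5 (SE 0.12, adjusted p = 3.28e-05), a level 1.40-fold lower in closed tissue at E9.5 and 2.42-fold lower at E8.5.

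Hoxc5 was also higher at E9.5 than at E8.5, by 1.28 in closed tissue (SE 0.12, adjusted p = 0.000146) and by 0.49 in open tissue (SE 0.11, adjusted p = 0.0242). Its means, from low to high, ran closed E8.5, open E8.5, closed E9.5 and open E9.5, and the middle pair (8.55 each) overlapped. The other Hoxc5 probe sets showed less. Probe set 1456301_at had group means of 6.22 in closed E9.5 and 6.36 in open E9.5 tissue, and of 5.65 in closed E8.5 and 6.10 in open E8.5 tissue, with region differences of -0.14 (adjusted p = 0.788) and -0.45 (adjusted p = 0.406) when all probe sets were tested one by one. Probe set 1450832_at stayed at 4.05 to 4.35 on every array, around the filter value. With the mean of all 3 probe sets in place of the lead, the E8.5 region difference was -0.59 and still past the threshold, the E9.5 region difference was -0.16 (adjusted p = 0.359), and the stage differences were 0.67 in closed tissue, past the threshold, and 0.24 in open tissue (adjusted p = 0.167).

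The calls of the smaller Hoxc5 differences depended on single arrays, while their sizes moved little. The E9.5 region difference was -0.44 when replicate 1 of open E9.5 was left out, -0.45 when replicate 1 of closed E9.5 was, and -0.44 when replicate 3 of closed E9.5 was, and then no longer past the threshold (adjusted p from 0.0603 to 0.0787, within 0.000939 to 0.359 over 25 alternatives). The stage difference in open tissue was 0.45 to 0.50 without open E8.5 replicate 1, 2 or 3 or open E9.5 replicate 1 or 2, and not past it in those fits (0.0681 to 0.107, within 0.000328 to 0.343 over 24 alternatives). With replicates 1 and 2 of open E9.5 both omitted, the arrays of high 3-prime signal, these differences were -0.43 (adjusted p = 0.237) and 0.43 (adjusted p = 0.343). The E8.5 region difference and the stage difference in closed tissue passed under all 25 and all 24 alternatives without a limit on size.

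Hoxa5, needed in mice for lung and for cervical skeleton, had log2 signals of 8.47, 8.74 and 8.42 in closed E9.5 tissue, against 9.34, 9.36 and 9.26 in open E9.5 tissue. In closed E8.5 tissue it had 8.35 and 8.58, against 8.36, 8.27 and 8.30 in open E8.5 tissue. The 3 open E9.5 arrays were above the other 8. Among those, closed E8.5 arrays overlapped both other groups, and open E8.5 arrays all lay below closed E9.5 arrays. Closed tissue was 1.71-fold lower than open tissue at E9.5 (log2 difference -0.78, SE 0.12, adjusted p = 0.00125) and differed by 0.15 at E8.5 (95% interval -0.14 to 0.44). Open tissue was 2.01-fold higher at E9.5 than at E8.5 (1.01, SE 0.12, adjusted p = 0.00043), while closed tissue differed by 0.08 between the stages (95% interval -0.21 to 0.37). In bulk tissue, more cells that express Hoxa5 and more Hoxa5 RNA per cell cannot be told apart. Blood markers lay apart by stage in open tissue (means of 5 genes, of which Gata1 was below 4.30 in all arrays, from 7.80 to 8.03 in open E9.5 and from 4.99 to 6.28 in open E8.5 arrays). They also lay apart by stage in closed tissue, from 7.07 to 7.90 in closed E9.5 and from 6.25 to 6.43 in closed E8.5 arrays. Lateral and intermediate mesoderm markers were at 4.50 to 4.61 in open E9.5 and at 4.62 to 4.73 in open E8.5 arrays, with Hand2 and Osr1 below 4.30 in all arrays. The part of both marker lists in the Hoxa5 values was not tested.

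The second Hoxa5 probe set, 1443803_x_at, had the same order of group means but wider spread: 8.40, 8.80 and 8.06 in closed E9.5 tissue, against 9.0, 9.40 and 8.23 in open E9.5 tissue, and 8.54 and 7.90 in closed E8.5 tissue, against 8.03, 7.84 and 8.16 in open E8.5 tissue. Its E9.5 region difference was -0.46 (adjusted p = 0.511) and its stage difference in open tissue 0.87 (adjusted p = 0.164) when all probe sets were tested one by one. On this probe set the arrays with high 3-prime control signal were also the bright ones: open E9.5 replicates 1 and 2 were at 9.0 and 9.40, open E9.5 replicate 3 at 8.23. On the lead probe set those 3 arrays were at 9.34, 9.36 and 9.26. With the mean of both probe sets, the E9.5 region difference was -0.62 (adjusted p = 0.0504), and with replicates 1 and 2 of open E9.5 both omitted it was -0.71 (adjusted p = 0.0571), within 6.69e-05 to 0.0571 over 25 alternatives. The stage difference in open tissue passed under all 24 alternatives (0.94 to 1.04).

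**Figure D2:**
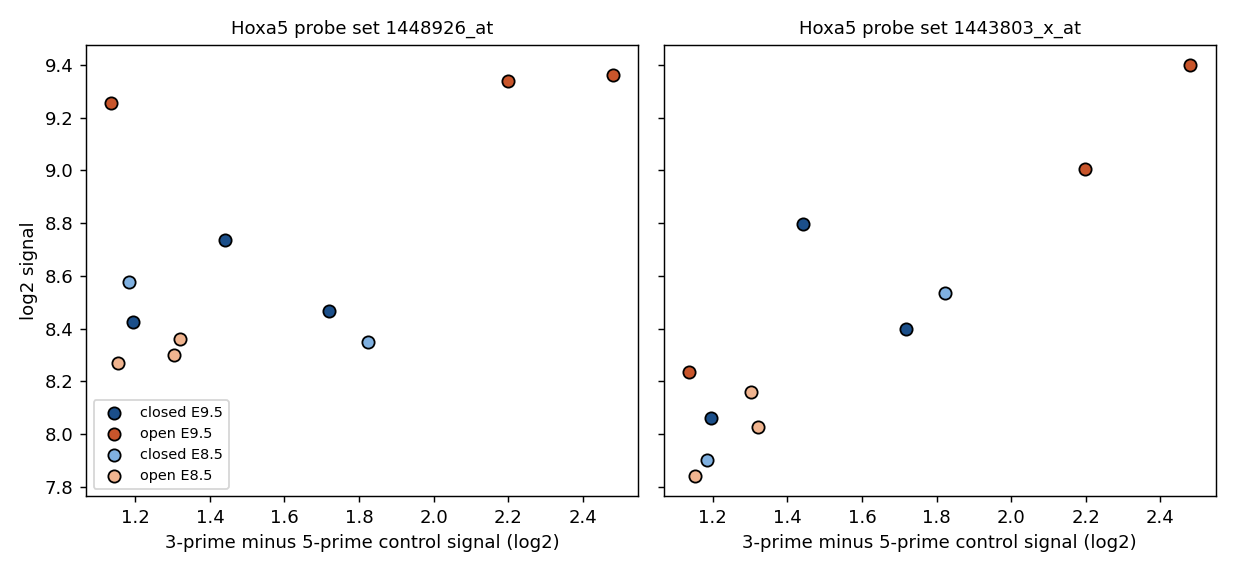
Log2 signal of the 2 Hoxa5 probe sets (vertical axis) against the 3-prime minus 5-prime signal of the Gapdh and Actb controls (horizontal axis, log2) in the 11 arrays, coloured by group. On 1448926_at (left) all 3 open E9.5 arrays lie above the other 8, and on 1443803_x_at (right) open E9.5 replicate 3 lies with the other arrays of low 3-prime signal.

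Hoxb5, which in mice acts in the neural crest of the gut, ran the other way from the Hoxc genes at E8.5. It had log2 signals of 7.56, 7.54 and 7.41 in closed E9.5 tissue, against 7.70, 7.48 and 7.43 in open E9.5 tissue. In closed E8.5 tissue it had 7.69 and 8.00, against 6.97, 6.96 and 7.17 in open E8.5 tissue. The regions overlapped at E9.5 and were apart at E8.5, where closed tissue was 1.75-fold higher (log2 difference 0.81, SE 0.14, adjusted p = 0.00407). At E9.5 the difference was -0.04 (95% interval -0.32 to 0.25). Without closed E8.5 replicate 2, the array with the high somite markers, the E8.5 difference was 0.66 (adjusted p = 0.0583, the highest of 25 alternatives, which began at 0.0014), and the part of somite tissue in it was not tested. The 6 neural crest markers averaged 6.05 to 6.33 in closed E9.5 arrays, against 4.98 to 5.24 in open E9.5 arrays, and 5.56 and 6.40 in closed E8.5 replicates 1 and 2, against 4.87 to 5.08 in open E8.5 arrays. The mean of the crest markers thus lay higher in closed tissue at both stages. Of the 6, 3 passed as higher at each stage (Foxd3, Ets1 and Tfap2b, limma, adjusted p under 0.05). Tfap2a, Sox10 and Snai1 differed by 0.60, 0.40 and -0.25 (log2) at E9.5 and by 0.82, 0.15 and -0.0014 at E8.5. The part of crest cells in the Hoxb5 values was not tested.

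Between the stages Hoxb5 was higher at E9.5 in open tissue by 0.50 (SE 0.13, adjusted p = 0.0488), a value close to the threshold that was no longer past it under 17 of 24 alternatives. Among these were the fits without any 1 of open E8.5 replicates 1, 2 and 3, open E9.5 replicates 1 and 2 and closed E9.5 replicates 1, 2 and 3 (adjusted p from 0.0648 to 0.204, within 0.000674 to 0.457 over all 24). In closed tissue the E9.5 arrays were all below the E8.5 arrays, with a difference of -0.34 (95% interval -0.66 to -0.03, adjusted p = 0.412). Hoxb5 has 1 probe set.

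Set side by side, the region differences passed for 2 of 6 genes at E9.5, both lower in closed tissue (Hoxa5 and Hoxc5), and for 3 of 6 at E8.5, of which Hoxc4 and Hoxc5 were lower and Hoxb5 higher. Over all genes tested, 8.54% passed at E9.5 (2.75% higher and 5.79% lower) and 7.17% at E8.5 (3.79% higher and 3.38% lower). Groups did not overlap for the same 2 and 3 members, against 22.5% and 27.5% of all genes. The stage differences passed for 3 of 6 genes in open tissue (Hoxa5, Hoxb5 and Hoxc5) and 2 of 6 in closed tissue (Hoxc4 and Hoxc5), all higher at E9.5. Over all genes, 5.02% passed in open tissue (3.61% higher and 1.42% lower) and 2.42% in closed tissue (0.96% higher and 1.46% lower). Stages did not overlap for 4 of 6 genes in open and 3 of 6 in closed tissue, against 21.8% and 21.2% of all genes. The median difference of the 6 was -0.09 for the regions at E9.5 and -0.03 at E8.5, and 0.49 and 0.34 for the stages in open and closed tissue, where the medians over all genes lay between -0.03 and 0.00. The comparisons share arrays, so their values are given for each gene and not added up.

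**Figure D3:**
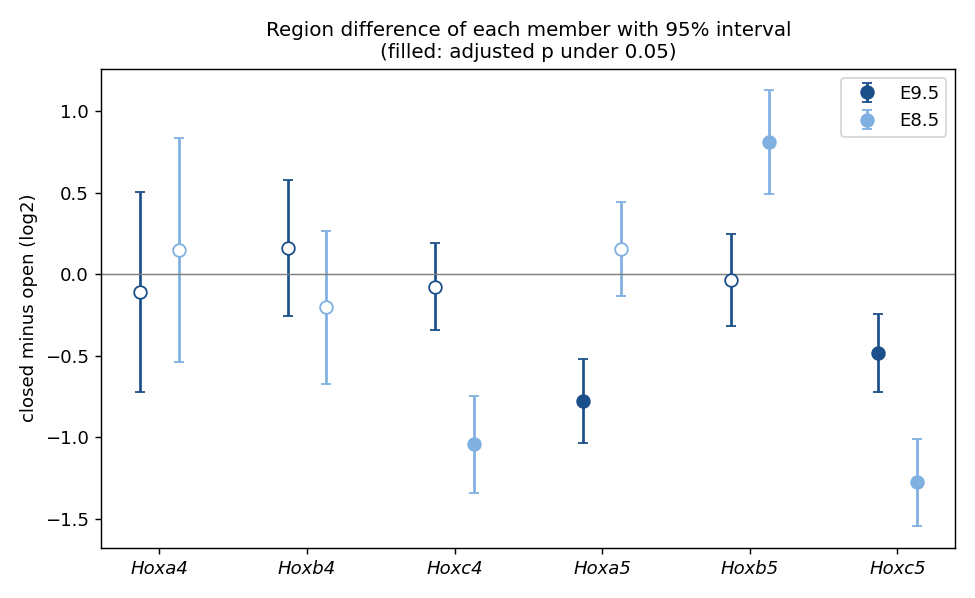
Closed-minus-open difference (log2, vertical axis) of each gene at E9.5 and E8.5 with its 95% interval, filled where the adjusted p was under 0.05. Hoxc5 lies below 0 at both stages, Hoxa5 at E9.5 and Hoxc4 at E8.5, and Hoxb5 lies above 0 at E8.5.

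Whether the region difference itself changed between the stages was tested as an interaction, the E9.5 difference minus the E8.5 difference. It passed for 3 of 6 genes, 2 above and 1 below 0, against 1.25% of all genes (0.3% above and 0.952% below). Hoxc4 (-0.08 at E9.5 and -1.04 at E8.5, interaction 0.97, SE 0.18, adjusted p = 0.0269) and Hoxc5 (-0.48 and -1.28, interaction 0.80, SE 0.16, adjusted p = 0.0416) had the larger deficit in closed tissue at E8.5. Hoxa5 (-0.78 and 0.15, interaction -0.93, SE 0.18, adjusted p = 0.0296) had its deficit at E9.5. Hoxb5 (-0.04 and 0.81) had an interaction of -0.85 (SE 0.19, adjusted p = 0.0712). It passed under 3 of 24 alternatives, among them replicate numbers within a stage as blocks (-0.92, adjusted p = 0.0183, within 0.0183 to 0.388 over all 24). For Hoxa4 and Hoxb4 the 95% intervals were -1.18 to 0.66 and -0.27 to 0.99. With any 1 array left out, 0 to 2 of the 6 passed.

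The clusters to which the genes belong were compared at their neighbours. In the Hoxc cluster at E8.5 every tested gene from Hoxc4 to Hoxc9 was lower in closed tissue. Beside -1.04 for Hoxc4 and -1.28 for Hoxc5, the differences were -1.41 for Hoxc6 (adjusted p = 0.0391), -2.26 for Hoxc8 and -1.90 for Hoxc9. Hoxc10 also passed (adjusted p = 0.0269), but its closed E8.5 arrays were at 3.25 and 4.02, under the filter value of 4.30, against 5.28 to 5.39 in open E8.5 arrays, so that its difference has no exact size. In the Hoxa cluster at E8.5, Hoxa4 and Hoxa5 differed by 0.15 each, between Hoxa3 at -0.72 (adjusted p = 0.229) and Hoxa7 at -1.63 (adjusted p = 3.98e-05). In the Hoxb cluster, Hoxb3 differed by 0.00, Hoxb4 by -0.20 and Hoxb5 by 0.81, and Hoxb6 by -0.68 (adjusted p = 0.196). At E9.5 none of the neighbours Hoxa3, Hoxb3, Hoxb6, Hoxc6 or Hoxa7 passed (adjusted p from 0.426 to 0.995). The plot along the clusters shows these values, of which differences between genes were not tested.

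**Figure D4:**
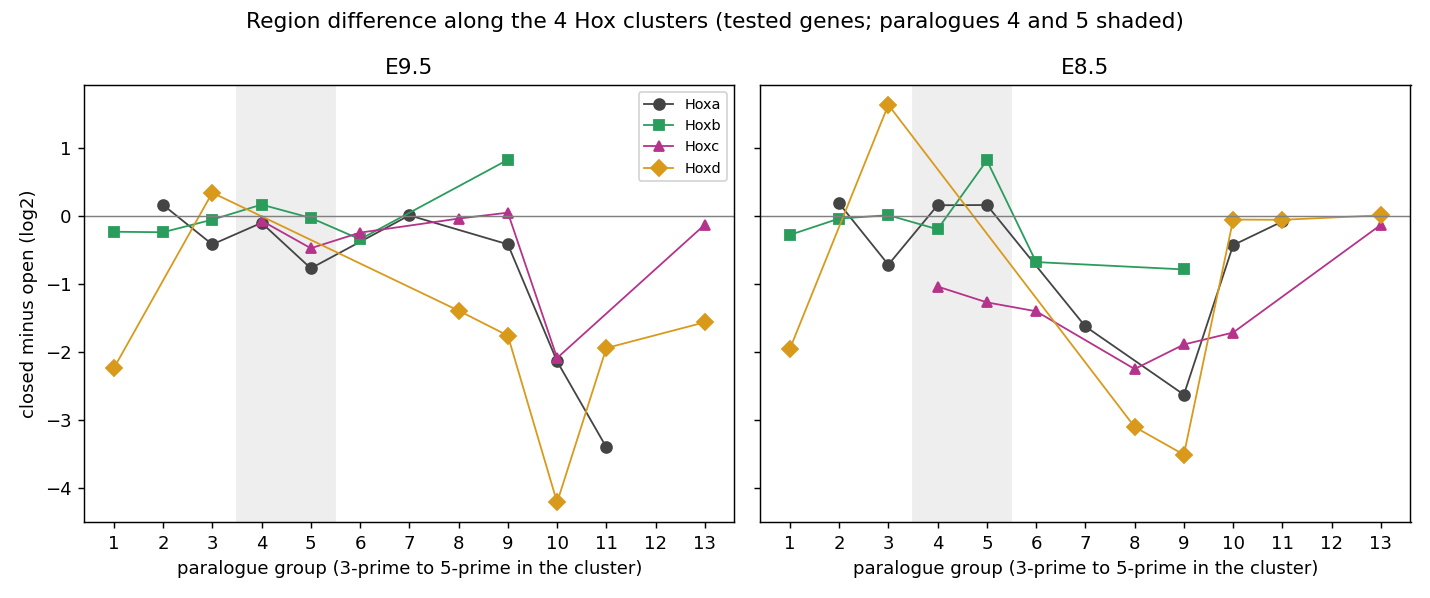
Closed-minus-open difference (log2, vertical axis) of the tested Hox genes by paralogue group (horizontal axis) in each cluster, at E9.5 (left) and E8.5 (right), with paralogue groups 4 and 5 shaded. At E8.5 the shaded genes run from -1.28 for Hoxc5 to 0.81 for Hoxb5, and the genes of groups 6 to 9 reach down to -3.52 for Hoxd9.

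Other Hox genes were counted by list. Over all genes tested, 2.75% were higher and 5.79% lower in closed tissue at E9.5, and 3.79% higher and 3.38% lower at E8.5. Of 7 tested genes of paralogue groups 1 to 3, 0 were higher and 1 lower at E9.5 in closed tissue (Hoxd1, -2.25), and 1 was higher (Hoxd3) and 1 lower (Hoxd1, -1.96) at E8.5. Of 9 tested genes of groups 6 to 9, 1 was higher (Hoxb9, 0.82) and 2 were lower at E9.5 (Hoxd8, -1.40, and Hoxd9, -1.77), and 0 were higher and 8 lower at E8.5. The list medians were -0.24 and -0.04 for groups 1 to 3, and -0.25 and -1.90 for groups 6 to 9, at E9.5 and at E8.5. The 7 tested genes of groups 10 to 13 had 6 members lower at E9.5 and 1 lower at E8.5 (Hoxc10), with medians of -2.09 and -0.09. At E8.5 Hoxa11, Hoxd10 and Hoxd11 lay under 4.30 on every array, so that the E8.5 median of this list rests on dim probe sets. Hoxd10, Hoxd11 and Hoxd13 averaged 9.25, 5.99 and 5.89 in open E9.5 tissue, against 5.03, 4.04 and 4.32 in closed E9.5 tissue. Their means over all arrays passed the filter only with the open E9.5 arrays. Hoxa13, Hoxb13 and Hoxd12 did not pass it. The E9.5 count and median of this list thus depend in part on the filter and are a description.

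Genes known to act on Hox genes also differed between the regions. The shares of all genes tested were 2.75% higher and 5.79% lower in closed tissue at E9.5, and 3.79% higher and 3.38% lower at E8.5. Of 15 tested retinoic acid pathway genes, 4 were higher and 2 lower in closed tissue at E9.5, and 6 were higher and 3 lower at E8.5. Aldh1a2, which makes retinoic acid, differed by 2.87 (SE 0.11) at E9.5 and 3.5 (SE 0.13) at E8.5, the receptor gene Rarb by 2.94 (SE 0.25) and 4.04 (SE 0.28), and Cyp26a1, which degrades retinoic acid, by -5.28 (SE 0.24) and -4.11 (SE 0.27). Of 14 caudal signals and factors, 1 (Nr6a1, 2.32) was higher in closed tissue and 8 were lower at E9.5, and 0 were higher and 10 lower at E8.5. This list includes the 5 measured caudal epiblast markers with which the labels were checked (Nkx1-2, Fgf8, Cdx2, Wnt3a and Fgf17). All 5 are among the lower genes at both stages, so the list is not separate from that check. Fgf8 differed by -3.59 (SE 0.20) at E9.5 and -4.37 (SE 0.23) at E8.5, the homeobox gene Cdx4 by -2.85 (SE 0.17) at E8.5 and the ligand gene Wnt5a by -2.04 (SE 0.14) at E9.5.

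Hox proteins of groups 4 and 5 bind DNA together with Pbx and Meis cofactors. Of 8 tested cofactor genes, 4 were higher and 0 lower in closed tissue at E9.5 and 3 were higher and 0 lower at E8.5, with medians of 0.93 and 0.86. Of all genes tested, 2.75% were higher at E9.5 and 3.79% at E8.5. Meis1 was higher by 3.10 (SE 0.18) at E9.5 and by 3.09 (SE 0.21) at E8.5, and Pbx3 by 2.67 (SE 0.24) and 2.74 (SE 0.27). Between the stages 1 of the 8 passed in open tissue, Pknox2 (-0.89, SE 0.20, adjusted p = 0.0251), against 5.02% of all genes tested. In closed tissue 0 passed by limma, with 1 at an unadjusted p under 0.05, a count not compared with that over all genes.

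For each of the 4 genes that passed in some comparison, the 3 tested genes with the most similar profile were taken by the root mean square difference of the profiles over 11 arrays, each centred on its own mean. For Hoxc5, whose own SD over arrays was 0.63 (log2), these were Blvra, a biliverdin reductase gene (0.12), the non-coding RNA gene Pvt1 (0.17) and the synaptic adhesion gene Nrxn2 (0.20). Blvra had group means of 6.83 in closed E9.5 and 7.54 in open E9.5 tissue, and of 5.74 in closed E8.5 and 6.90 in open E8.5 tissue. For Hoxa5 they were Tenm2 (0.15), Tanc1 (0.15) and Ano6, a lipid scramblase gene (0.15), for Hoxb5 Septin8 (0.12), C2cd5 (0.13) and Atxn7 (0.14), and for Hoxc4 Cystm1 (0.15), the histone deacetylase gene Hdac11 (0.17) and Insl6 (0.17). Tenm2 averaged 4.10 in open E8.5, 4.17 in closed E8.5 and 4.21 in closed E9.5 tissue, all under the filter value. In open E9.5 tissue Tenm2 averaged 4.99. Its likeness to Hoxa5 therefore rests on the open E9.5 arrays, with dim signal in the other groups. None of the 12 genes was a Hox gene.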

How the data were processed

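The authors deposited log2 signal of 45101 probe sets on 11 arrays, from 2.37 to 14.72 with 0 missing values and array medians between 4.80 and 4.90. MAS5 is named in the submitters' processing notes without version or role, and the background correction, summary and scaling are not given in the sources used here. The log2 scale was read from the values, and whether the arrays were scaled together is not known.

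Symbols came from GEO's platform annotation: 34945 probe sets carry 1 symbol, 932 several, 9160 none, and 64 are controls. The brightest probe set on average stood for each of 18193 genes, and the 13338 at or above the 40th percentile (4.30) were fitted as 4 group means with limma 3.58.1 in R 4.3.3 (eBayes with an intensity trend, 7 residual degrees of freedom, 4.40 prior ones at the median). Adjusted p is Benjamini-Hochberg over all genes, with 0.05 as threshold. The pipeline was tested on simulated data. The number of arrays limits the precision. The labels call the arrays of a group biological replicates, with pooling by litter; the p-values measure the spread between them.

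The members, lists and tests were chosen with earlier results of these data known, and the promoter motifs after the sequences were seen. Genes named were the members, their cluster neighbours, up to 2 genes of smallest p per list and direction, and the 3 closest profiles. Deviations from group means of arrays with the same replicate number in the 2 regions of a stage correlated at 0.31 to 0.70 across genes in 5 pairs, all above 0.1, the value set for taking numbers as pairs. Differently numbered arrays of the 2 regions of a stage reached 0.32, above the lowest same-number pair, so the pairing is not clear-cut. Across stages same-numbered arrays correlated at -0.65 to 0.46 and others at -0.76 to 0.76. The 4 group means as fitted use no pairs; the blocked fits are alternatives. Alternatives were 2 normalizations, 2 filters, other uses of probe sets, variance models, array weights, a covariate for 3-prime signal, replicate blocks, fewer groups or arrays, and a limit of 1 on the log2 difference.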

Additional observations from a re-analysis of the deposited data

Results flagged for a closer look

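The region difference of 3 genes differed between the stages by the interaction test in limma. Hoxa5 had an interaction of -0.93 (log2), with closed below open tissue by 0.78 at E9.5 and above it by 0.15 at E8.5. It was no longer past the threshold under 13 of 24 alternatives, 8 of them fits without 1 array (adjusted p from 0.0716 to 0.14).

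Hoxc4 had an interaction of 0.97 and Hoxc5 of 0.80, with closed further below open tissue at E8.5 than at E9.5. Hoxc4 lost the call under 9 of 24 alternatives, 7 of them without 1 array (0.0575 to 0.125), and Hoxc5 under 17 of 24, including each of the 11 fits without 1 array (0.054 to 0.145). The direction of all 3 was the same under all alternatives.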

How the results depend on the processing

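Counts of genes past the threshold among the 6 were, as reported, 2 for the regions at E9.5, 3 for the regions at E8.5, 3 for the stages in open tissue, 2 for the stages in closed tissue and 3 for the interaction. With each array left out in turn they ranged from 1 to 2, 2 to 3, 1 to 3, 1 to 2 and 0 to 2. For the regions at E9.5 the count was 0 with the mean of all probe sets, 0 without open E9.5 replicates 1 and 2 together, 1 with only the groups compared and 0 with a limit of 1 on the log2 difference. For the stages in open tissue it was 1 with quantile normalization, 5 with array weights (where 4301 of 13338 genes passed, against 670 as reported), 1 without open E9.5 replicates 1 and 2, 1 with only the groups compared and 1 with the limit. For the stages in closed tissue it was 1 with all probe sets one by one, with array weights, without those arrays, with only the groups compared, with replicate blocks over both stages and with the limit. For the interaction it was 1 with all probe sets one by one, and 0 without those arrays, with replicate blocks over both stages and with the limit. The causes were not tested. Of 762 alternative values of single genes, 641 kept direction and side of the threshold, 93 fell short of it, 6 crossed it and 22 changed sign, and 0 of the sign changes were past the threshold. Signs turned for Hoxb4 at E9.5 with the 3-prime covariate (-0.0087), for Hoxb5 at E9.5 with quantile normalization (0.0358) and with replicates 1 and 2 of open E9.5 omitted (0.0668), and for Hoxb4 between stages in open tissue with the mean of probe sets (0.0179), the covariate (0.21) and without those arrays (0.11). With single arrays left out, region differences ranged from -0.41 to 0.16 (Hoxa4), -0.18 to 0.0025 (Hoxc4) and -0.0865 to 0.0444 (Hoxb5) at E9.5, and from -0.26 to 0.56 (Hoxa4) and -0.60 to 0.19 (Hoxb4) at E8.5. Stage differences ranged from -0.13 to 0.0312 (Hoxb4) in open and from -0.0636 to 0.75 (Hoxa4), -0.0603 to 0.73 (Hoxb4) and -0.0364 to 0.19 (Hoxa5) in closed tissue, and interactions from -0.67 to 0.15 (Hoxa4) and -0.0331 to 0.76 (Hoxb4). Replicate blocks within a stage added the Hoxb5 interaction (-0.92) and changed no other call of a member. Over all genes they gave 2221 calls between regions at E9.5, against 1139 as reported, and 452 for the interaction, against 167. Over all alternatives the calls ranged from 454 to 3424 and 484 to 1519 (against 957) for the regions at E9.5 and E8.5, from 182 to 4301 and 150 to 730 (against 323) for the stages in open and closed tissue, and from 72 to 452 for the interaction. Fits that left 1 array in a group assumed that it varies like the others. Hoxa4, at 5.20 to 6.59 on its lead probe set, was the dimmest of the 6 genes but lay above the filter of 4.30 on every array.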

Other observations

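Genes that overlap the members in RefSeq were read beside them. Hoxb5os, which overlaps Hoxb5, had log2 signals of 13.62 to 13.84 in closed E9.5 and 13.61 to 13.73 in open E9.5 tissue, and 13.41 and 13.63 in closed E8.5 tissue, against 13.73 to 13.83 in open E8.5 tissue. At E8.5 both closed arrays thus lay below all open arrays, while Hoxb5 was higher in closed tissue. Groups did not overlap at E8.5 for 27.5% of all genes tested, and no test of Hoxb5os is given here. Its signal lay near the top of the range, where the brightest probe set of each array was at 14.55 to 14.72. Hoxa3, whose RefSeq range overlaps those of Hoxa4 and Hoxa5, had 7.43 to 8.20 in closed E9.5 and 7.87 to 8.69 in open E9.5 tissue, and 7.40 and 8.06 in closed E8.5 tissue, against 8.22 to 8.58 in open E8.5 tissue. Hoxb3, whose range overlaps that of Hoxb4, stayed between 9.65 and 10.10 on all 11 arrays. How far RNA of one gene binds the probes of an overlapping one was not tested.

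Chromatin regulators of the Hox clusters were counted as a further list. Of 18 tested Trithorax and Polycomb genes, 2 were higher and 0 lower in closed tissue at each stage. Of all genes tested, 2.75% were higher at E9.5 and 3.79% at E8.5. Both were Polycomb genes at both stages: Bmi1 differed by 0.77 (SE 0.12, adjusted p = 0.00162) at E9.5 and 1.35 (SE 0.14, adjusted p = 5.33e-05) at E8.5, and Phc2 by 0.69 (SE 0.17, adjusted p = 0.0236) and 0.95 (SE 0.19, adjusted p = 0.008). Between the stages Kdm6b, a demethylase gene that acts against Polycomb marks, was higher at E9.5 in open tissue (0.79, SE 0.13, adjusted p = 0.00415). It was 1 of 18, against 5.02% of all genes tested. In closed tissue 0 of the 18 passed by limma, with 1 at an unadjusted p under 0.05, a count not compared with that over all genes.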
